A study of Drosophila melanogaster with 6 samples.

Results

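The growth genes of the Fat, Dachsous and Hippo pathways were followed here in eye-antennal discs given a UAS transgene for the fly Tet enzyme. The set holds 10 genes picked by symbol, ft, ds, fj, d, ex, kibra, hpo, wts, yki and sd, out of 17609 gene symbols in the count table. The eye-antennal disc is the larval epithelium that forms the compound eye, the antenna and the head capsule. Discs came from larvae in the third instar, and total RNA was read in 6 stranded libraries. The 3 control libraries were from ey-Gal4 crossed to the W1118 background, and the other 3, called dTet here, were from ey-Gal4 with UAS-dTet. All 6 therefore carry ey-Gal4, in which an enhancer of eyeless drives the yeast activator Gal4 in the eye field and not evenly across the disc, while the RNA was taken from the whole disc. The cross asks how dTet overexpression alters gene expression in a disc whose adult eye it disturbs.

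Fat (ft) and Dachsous (ds) are giant cadherins that bind each other across neighbouring cells, as receptor and ligand, and the Golgi kinase encoded by fj tunes that binding. Through the myosin Dachs (d) they act on the kinase cascade of hpo and wts, which is also switched on at the cell apex by the scaffolds encoded by ex and kibra. The cascade phosphorylates and thereby restrains Yki, the coactivator that works with the DNA-binding TEAD protein Sd to drive growth. In the eye disc the same cadherins orient cells and ommatidia in the plane of the epithelium.

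The libraries held 16395675 to 20242356 counted read pairs. Of 9417 genes tested, 1074, or 11.4%, were called at an adjusted p of 0.05, 355 of them higher in dTet (3.77%) and 719 lower (7.64%), by the quasi-likelihood test of edgeR with Benjamini-Hochberg adjustment, the test behind every adjusted p given here unless another is named. Tet itself lay between 316 and 385 CPM (the count scaled to library size with TMM factors) among controls against 365 to 457 CPM under dTet, and was not called (adjusted p = 0.244). These counts do not part the transgene from the endogenous gene. The gene w was lower in every dTet library than in every control library, 13.6-fold by the fit (adjusted p = 4.4e-05). How that fall relates to the labelled genotypes was not tested. Eye-field markers fit the labelled tissue in controls and were lower in dTet in 6 of 6 genes, their summed level going from 1270 to 1508 CPM in controls to 329 to 340.2 CPM. Photoreceptor markers were lower in 9 of 10 genes (1019 to 1029.7 CPM against 139 to 147 CPM), and antennal and head markers were higher in 8 of 9 (753 to 776 CPM against 1263 to 1330.2 CPM). Glial markers were lower in 2 of 5 genes (250.3 to 309 CPM against 235 to 255 CPM) and muscle markers higher in 2 of 7 (762 to 851 CPM against 889.8 to 1264 CPM). Most of the glial sum was nrv2, at means of 245 and 221 CPM and not called. The called glial genes were repo (21.2 to 9.08 CPM) and moody (11.1 to 5.31 CPM), while Gs2 went the other way, uncalled (7.56 to 12.7 CPM). Both calls ended without control replicate 2 or 3 or dTet replicate 2 or 3 (adjusted p from 0.0506 to 0.0927). None of 6 hemocyte or 6 fat body markers was called, at 162 to 221 CPM and 601 to 2581 CPM in controls against 155 to 176 CPM and 412 to 1474 CPM in dTet. Of 6 genes used as markers of wing and leg discs, 1 of the 4 tested was higher, and no gene in any of these lists was at 0 in all libraries. In RNA from whole discs, fewer cells of a type and less RNA per cell cannot be told apart. The part that these shifts of tissue markers play in the values below was not tested.

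Among the 10 genes, ft and d were called modestly higher in dTet discs and none was called lower. Both calls ended when any library other than control replicate 1 was left out. All 10 passed the filter on low counts, 2 were called higher, and 8 did not pass, where 3.77% of all tested genes were called higher. The log2 fold change was above 0 in 9 of the 10, with a median of 0.29 and a range from -0.08 (yki) to 0.53 (kibra), where the median over all tested genes was -0.02 and 48.1% of them lay above 0. In 5 genes, ft, ds, fj, d and wts, all 3 dTet libraries lay above all 3 controls; 15.1% of all tested genes were apart in this direction, 17.6% in the other and 32.6% in either. The 5 were also those with an unadjusted p under 0.05, which 28.8% of all genes had. No change was larger than 1.44-fold.

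**Figure D1:**
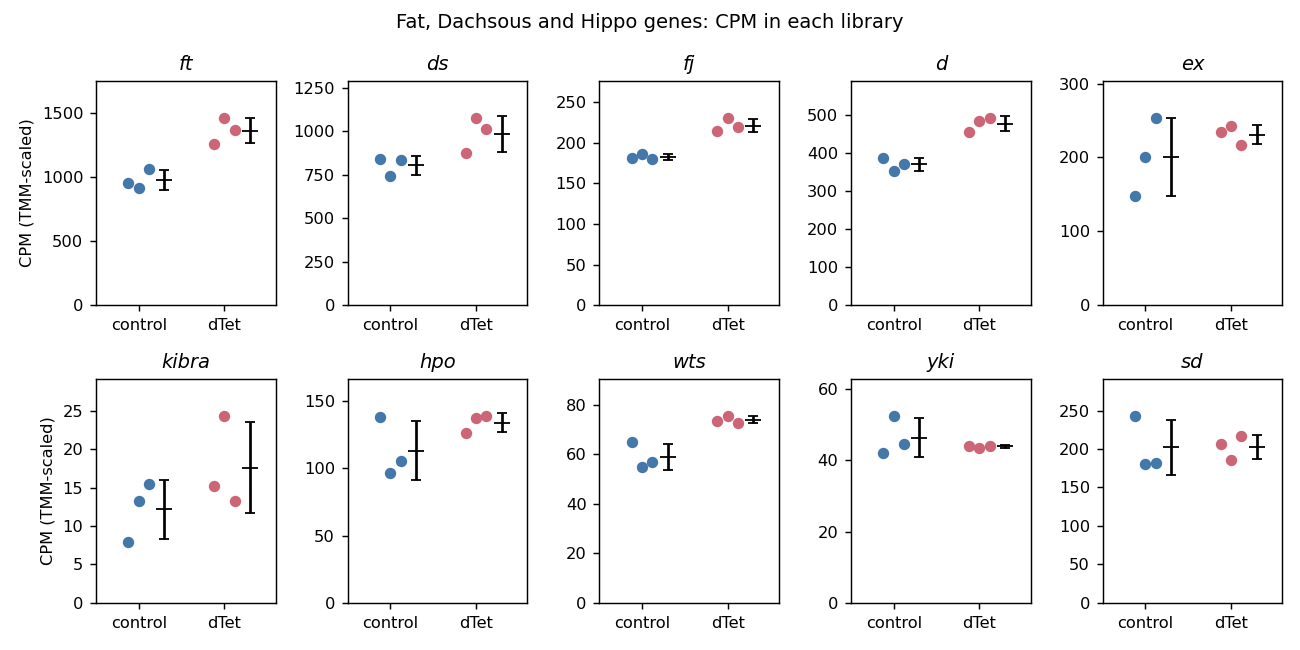
CPM (TMM-scaled, axes from 0) of each of the 10 genes, with 1 point per library, control in blue and dTet in red, and the mean ± SD of the 3 libraries beside the points. The groups are apart for ft, ds, fj, d and wts, and overlap for ex, kibra, hpo, yki and sd.

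The receptor gene ft, on 2L at 4198404 to 4221796 (dm6, minus strand), changed most clearly. Its controls stood at 949.5, 916 and 1059 CPM and its dTet libraries at 1257, 1455 and 1368 CPM. Every dTet library was above the highest control, by a gap wider than the spread of the controls. The mean rose 1.40-fold, from 975 ± 75.0 to 1360.1 ± 99.6 CPM (SD, n = 3 each; log2 fold change 0.48, SE 0.13, 95% interval 0.20 to 0.76, adjusted p = 0.0389). The call was lost when any library other than control replicate 1 was left out. The adjusted p was 0.128 without control replicate 2, 0.0711 without control replicate 3, and 0.0855, 0.159 and 0.158 without dTet replicates 1, 2 and 3, with log2 fold changes of 0.43 to 0.54. Without control replicate 1 it was 0.00468.

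The ligand gene ds lies on 2L at 640013 to 714983. It was read at 839.9, 741 and 832 CPM in the control discs, against 873, 1074 and 1009.9 CPM in dTet discs. The groups did not overlap, but dTet replicate 1 stood only slightly above control replicate 1. The log2 fold change of 0.29 (SE 0.13, 95% interval 0.01 to 0.58) did not pass after adjustment (adjusted p = 0.167). Without control replicate 1 it did (adjusted p = 0.039).

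The ratio of the receptor to its ligand does not depend on how libraries are scaled. Per length, log2(ft/ds) was -0.26, -0.13 and -0.09 in the controls, so that ds was the higher of the pair in each. In dTet discs it was 0.09, -0.0006 and -0.001, at or close to parity. The mean difference was 0.19, and all 3 dTet values lay above all 3 control values, but with 3 libraries against 3 the two-sided exact permutation test cannot go below p = 0.1, the value it gave (0.35 after Benjamini-Hochberg adjustment over the 7 ratios tried).

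The modifier gene fj, on 2R at 18232761 to 18236311, was the least variable member of the cadherin branch. Its controls lay at 182, 186 and 179.6 CPM and its dTet libraries at 214, 230.1 and 219 CPM. The groups were separated by more than the spread within either, but the difference was small, at 1.21-fold (log2 fold change 0.28, SE 0.10, 95% interval 0.06 to 0.49, adjusted p = 0.0961). It passed without control replicate 1 (adjusted p = 0.0354), and with a trend on gene length removed from each library, an alternative chosen after seeing the data, it was smaller, at 0.16 (adjusted p = 0.26). The ratio fj/ds differed between groups by -0.01 on the log2 scale (exact permutation p = 0.7), with overlapping values.

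The myosin gene d, on 2L at 8466817 to 8488671, acts between the cadherins and Warts, whose protein level it lowers. The counts gave 387, 353 and 372 CPM in controls and 456, 485 and 492 CPM in dTet discs. All dTet libraries exceeded all controls, with an SD of 17.4 and 19.3 CPM within the groups. The rise was 1.29-fold (log2 fold change 0.37, SE 0.10, 95% interval 0.14 to 0.60, adjusted p = 0.0499), which made d the last of the 1074 called genes when ranked by p. The call was lost without control replicate 2 (adjusted p = 0.162), control replicate 3 (0.141) and dTet replicates 1, 2 or 3 (0.111, 0.166 and 0.194), and also when genes of low count were not filtered out (0.0852, at a background of 10.4%). It held without control replicate 1 (0.00514). log2(ft/d) differed between groups by 0.11 with overlapping values (exact permutation p = 0.3).

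**Figure D2:**
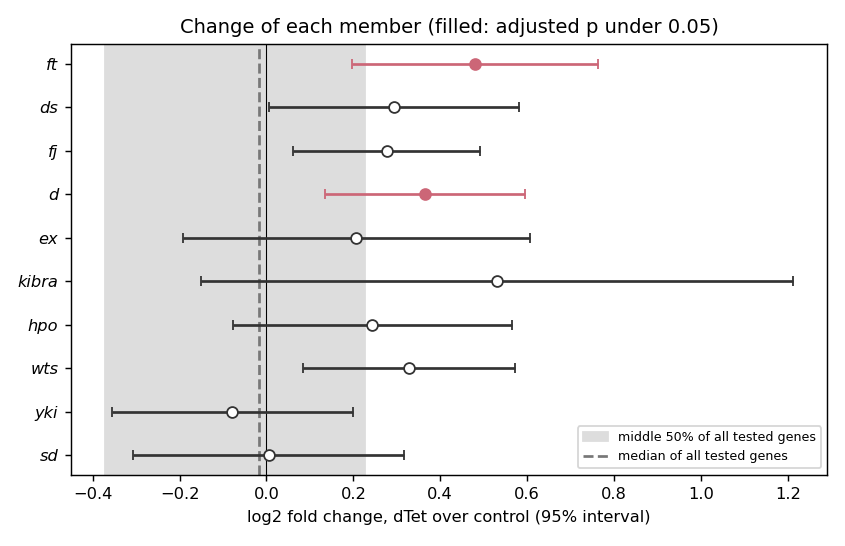
Log2 fold change of each gene, dTet over control, with its 95% interval from the edgeR fit; filled points passed an adjusted p of 0.05. The grey band runs from the lower to the upper quartile of all 9417 tested genes (-0.37 to 0.23) and the dashed line marks their median of -0.02; ft and d are the filled points, at 0.48 and 0.37.

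The upstream scaffolds varied most among the controls, with a coefficient of variation of 26.3% for ex and 31.5% for kibra; in dTet discs it was 5.66% for ex and 33.6% for kibra. The FERM-domain gene ex, on 2L at 431227 to 448701, is itself a target of Yki and is often read as a reporter of its activity. It lay at 148, 200.2 and 253 CPM in the control discs, against 235, 242 and 217 CPM under dTet. The controls alone spanned a range wider than the whole dTet group and enclosed it. The log2 fold change was 0.21 (SE 0.18, 95% interval -0.19 to 0.61, adjusted p = 0.47), and it was 0.01 without control replicate 1 but 0.40 without control replicate 3. kibra, on 3R at 14697689 to 14724261, encodes a scaffold with WW domains and had the lowest counts of the 10, 170 to 445 read pairs per library. Its controls stood at 7.93, 13.2 and 15.4 CPM and its dTet libraries at 15.2, 24.3 and 13.2 CPM. The groups overlapped, and dTet replicate 2 alone stood well above the rest. The estimate of 0.53 had the widest interval of the set (SE 0.30, -0.15 to 1.21, adjusted p = 0.281); it was 0.22 without dTet replicate 2 and 0.73 without control replicate 3.

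Of the 2 kinases, wts was the steadier. wts, on 3R at 30789625 to 30806619, encodes the kinase that phosphorylates Yki. Its controls lay at 64.7, 54.8 and 56.9 CPM and its dTet libraries at 73.5, 75.3 and 72.5 CPM. The dTet values were tightly grouped and all above the controls, a 1.25-fold difference that did not pass (log2 fold change 0.33, SE 0.11, 95% interval 0.08 to 0.57, adjusted p = 0.0856; 0.0106 without control replicate 1). hpo, on 2R at 19493996 to 19496856, encodes the upstream kinase and stood at 138, 96.2 and 105 CPM in the control discs, against 126, 137 and 139 CPM under dTet. Control replicate 1 alone matched the dTet values, so the groups overlapped. Its log2 fold change of 0.24 (SE 0.14, -0.08 to 0.56) had an adjusted p of 0.291, and it hung on single controls: it was 0.39 (adjusted p = 0.00823) without control replicate 1, 0.14 (0.651) without control replicate 2 and 0.19 (0.565) without control replicate 3. An exon of hpo overlaps one of Rep on the other strand, and an exon of ex overlaps one of crq in the same way; the counting was strand-specific.

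The nuclear effectors did not pass the test. yki, on 2R at 24065975 to 24068485, was read at 42.1, 52.5 and 44.7 CPM in the control discs, against 44.2, 43.6 and 44.1 CPM in dTet discs. The dTet values lay inside the control range. The log2 fold change was -0.08, and its 95% interval of -0.36 to 0.20 bounds the change in RNA level between 0.781-fold and 1.15-fold (adjusted p = 0.706). sd, on X at 15804370 to 15827682, stood at 243, 181 and 182 CPM in the control discs, against 206, 186 and 217 CPM under dTet. Here too the dTet libraries fell within the span of the controls, which control replicate 1 stretched upward. The log2 fold change was 0.01 (95% interval -0.31 to 0.32, adjusted p = 0.984), and its sign turned under 7 of the 15 other settings.

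The balance of the inhibitory kinase to its substrate was compared in the same way. Per length, log2(wts/yki) was -1.31, -1.86 and -1.58 in controls and -1.19, -1.14 and -1.21 in dTet discs. All dTet ratios were thus above all control ratios, by a mean of 0.40 (exact permutation p = 0.1, the smallest the design allows, and 0.35 adjusted over the 7 ratios). On the linear scale, the ratio of read pairs per exon base went from 0.333 to 0.441. The 2 genes differ in exon length, 5803 bases for wts and 1525 for yki, and with the length trend removed their log2 fold changes were 0.23 and -0.01, closer together than 0.33 and -0.08. The log2 ratios wts/hpo, sd/yki and ex/kibra differed by 0.07, 0.09 and -0.29, with overlapping values and exact permutation p of 0.6, 0.7 and 0.4. These ratios are of RNA, and the pathway acts largely through phosphorylation, which was not measured.

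Levels per length were compared within each library as TPM, the count per exon length scaled to a fixed total. In all 6 libraries the 4 genes of the cadherin branch, ft, ds, d and fj, took the first 4 ranks, with fj at rank 4 each time. The mean levels in controls were 92.6 ± 22.2 TPM for ds, 86.7 ± 20.2 for d, 82.2 ± 15.5 for ft and 73.0 ± 13.3 for fj. hpo followed at 58.7 ± 22.8, yki at 42.8 ± 4.52, ex at 41.6 ± 7.38 and sd at 33.5 ± 12.4 TPM. Over the control libraries, the range of each of these 8 overlapped that of its neighbour in the order. Within single libraries, ds lay above d, ft above fj and fj above hpo in 3 of 3 controls. wts at 14.6 ± 4.10 and kibra at 2.91 ± 0.589 TPM stood apart from their neighbours and held ranks 9 and 10 in every library. In dTet discs ft, ds and d overlapped one another at 131, 129 and 127 TPM, and fj (101), hpo (77.6), ex (56.2), yki (46.8), sd (37.6), wts (20.6) and kibra (4.95) each stood apart from the next. TPM shares a total with very short genes, so the levels are set against each other within a group and not between groups.

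**Figure D3:**
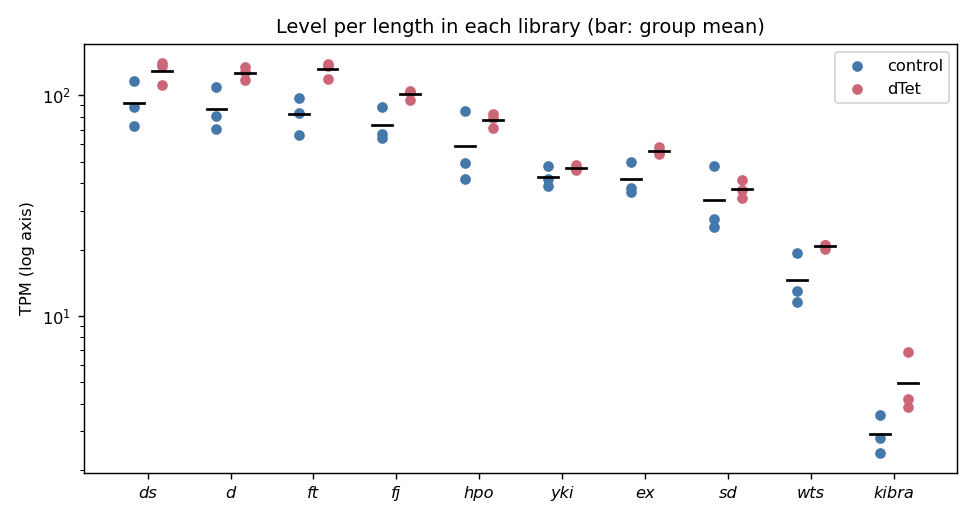
TPM of each gene on a log axis, 1 point per library with the group mean as a bar, ordered by the control mean. The 4 genes of the cadherin branch lie highest and kibra, under 7 TPM in every library, lies lowest; the axis is not for comparing control with dTet.

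Gene length moved with the contrast and is given beside these changes because several of the 10 are long. When tested genes were cut into 10 classes of equal size by length, in the shortest class (exon length up to 733 bases) the median log2 fold change was -0.31, and in the longest (5961 bases or more) it was 0.05. The median did not rise steadily and was highest, at 0.11, in the class of 3186 to 4142 bases. In the longest class 6.79% of genes were called higher and 14.3% lower. Within the longest class, ft was at percentile 90.8 of log2 fold changes, d at 85.9, ds at 80.4, ex at 70.0 and sd at 43.8. kibra (90.4) and wts (78.7) were placed in the next class, where the median was 0.10. With the trend on length removed from each library, ft (log2 fold change 0.42, adjusted p = 0.0062) and d (0.27, adjusted p = 0.0366) were again the only members called, at a background of 15.4%, while ex went from 0.21 to 0.10.

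One control library weighed on many of these results. Control replicate 1 was farthest from the other 2 controls for 5 of the 10 genes (ex, kibra, hpo, wts and sd), as it was for 54.0% of all tested genes. Without it, 6 members were called, all higher, namely ft, ds, fj, d, hpo and wts, but so were 33.3% of all tested genes. With any other library left out, no member was called, at backgrounds of 7.34% and 5.77% without control replicates 2 and 3 and of 7.94%, 7.11% and 6.33% without dTet replicates 1, 2 and 3. The SD of log2 CPM was larger in controls than in dTet discs for 8 of the 10 genes, and for 60.3% of all tested genes.

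**Figure D4:**
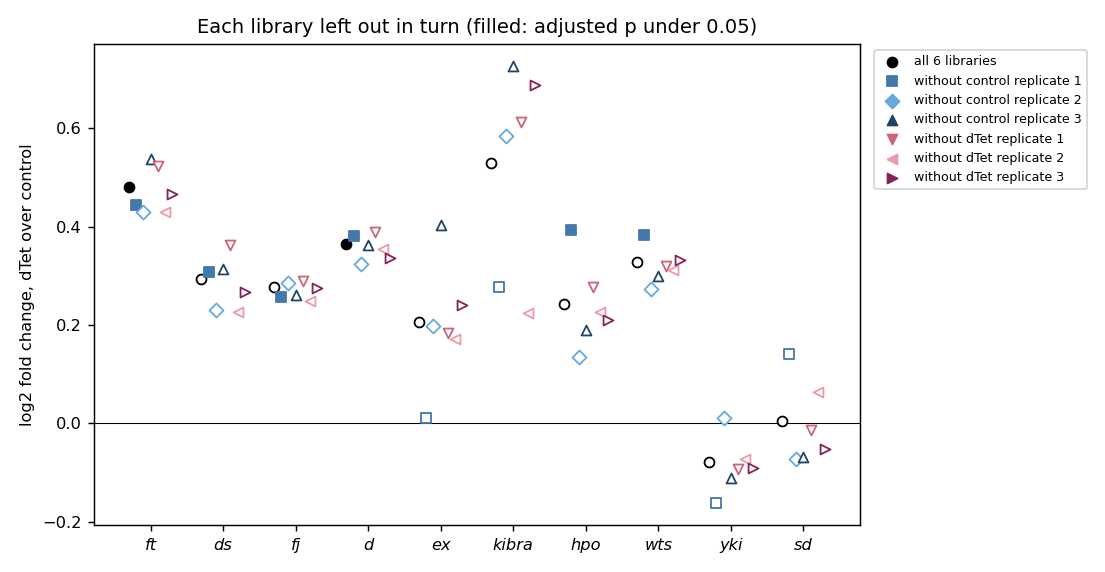
Log2 fold change of each gene with all 6 libraries (black) and with each library left out in turn; filled symbols passed an adjusted p of 0.05. ft, ds, fj, d and wts keep to a narrow band above 0, hpo runs from 0.14 to 0.39, and ex and kibra scatter widely. yki lies below 0 except without control replicate 2 (0.011), and sd lies on both sides of 0.

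Pathway neighbours and related polarity and cadherin genes were called at a share near that of all genes. Of 102 further tested genes in 8 lists, 14 (13.7%) were called, 6 higher and 8 lower, against 11.4% of all tested genes, and their median log2 fold change was 0.07. In the Fat-Dachsous branch 1 of 12 genes was called, lft, whose product binds the tails of both cadherins and stabilizes them. It fell 1.34-fold, opposite in direction to ft, from 238, 215 and 229 CPM in controls to 166, 176 and 169 CPM in dTet discs (log2 fold change -0.42, SE 0.10, adjusted p = 0.0249). Its adjusted p climbed to between 0.0749 and 0.105 once control replicate 3 or a single dTet library was dropped, and to 0.102 with the length trend removed. The median of this list was 0.12.

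Among 23 regulators of the kinases, which include Mer, sav and mats, 2 fell and none rose, with a median of 0.02. Schip1, on 2L at 10328200 to 10331116, encodes a protein that brings the Tao kinase to Hpo at the membrane. It went from 52.7, 45.5 and 43.3 CPM in controls to 2.93, 0.109 and 1.37 CPM in dTet discs, a 32.5-fold fall (log2 fold change -5.02, SE 0.58, adjusted p = 0.000547), which was 61.8-fold without dTet replicate 1. Sik2, on X at 2055310 to 2061915, encodes a kinase that counters Hippo signalling through Salvador. It went from 15.9, 14.2 and 16.2 CPM to 0.957, 0.382 and 3.23 CPM, or 9.96-fold lower (log2 SE 0.59, adjusted p = 0.00661), and 23.2-fold lower without dTet replicate 3. Both were called under all 15 other settings. The summed photoreceptor markers were also lower in the same 3 libraries, at 139 to 147 CPM against 1019 to 1029.7 CPM, and their part in these falls was not tested.

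Of 12 apicobasal and actin genes upstream of Hippo, 1 fell and none rose, with a median of 0.13. It was scrib, a basolateral polarity gene, which went from 418 ± 5.0 to 306 ± 12.6 CPM (1.37-fold, adjusted p = 0.0172; 0.0527 to 0.0827 once control replicate 3 or a single dTet library was dropped). Of 13 partners of Yki and Sd, only hth was called. It encodes a homeodomain protein that works with Yki in the anterior eye disc, also stands among the antennal and head markers, and rose 1.54-fold from 410.2 ± 11.1 to 630.02 ± 30.8 CPM (adjusted p = 0.0048). vg, the partner of Sd in the wing, had group means of 1.53 and 3.13 CPM and was not called (adjusted p = 0.227).

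Of 17 tested genes described as targets of Yki, 4 rose and none fell, with a median of 0.15, where 3.77% of all tested genes were higher and 7.64% lower. Under 6 other settings 1 gene of this list was lower, namely DESeq2, limma-voom, no filter, the length trend removed, and without control replicate 1 or dTet replicate 1. The glypican genes dally and dlp, whose products spread Wg and Dpp signals, rose 1.50-fold and 1.45-fold, from 217 ± 38.5 to 326 ± 7.69 CPM and from 119.7 ± 14.1 to 173 ± 9.89 CPM (adjusted p = 0.0218 and 0.0182). The Notch ligand gene Ser rose 1.71-fold (adjusted p = 0.00182) and the Wnt ligand gene wg 1.93-fold (adjusted p = 0.000781). All 4 respond to other pathways as well. Diap1, CycE and Myc, growth and survival targets picked after their values were seen, were not called. The log2 fold change was -0.01 for the caspase inhibitor gene Diap1 (SE 0.10, adjusted p = 0.954), 0.05 for the cyclin gene CycE (SE 0.12, adjusted p = 0.818) and 0.15 for Myc (SE 0.10, adjusted p = 0.388). Other uncalled targets moved more, in both directions. vn was 1.42-fold higher (adjusted p = 0.0524), Ilp8 2.18-fold higher (0.122) and chinmo 1.43-fold lower (0.0595). The calls of dally and dlp ended when control replicate 2 or 3 or dTet replicate 2 or 3 was left out, and that of dally also without dTet replicate 1 (adjusted p from 0.0637 to 0.0918).

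Genes that set the dorsal and ventral domains of the eye shape where ds and fj are made. Of 14, 3 rose, namely wg, Ser and the dorsal selector pnr (1.59-fold, adjusted p = 0.0211), and the eye gene Optix fell 2.36-fold (adjusted p = 0.00117). The median was 0.26. The call of pnr ended without control replicate 2 or 3 or dTet replicate 1 or 2 (adjusted p from 0.0561 to 0.0923). In the core planar polarity group, which orients ommatidia beside the Fat system, 1 of 7 was called: pk fell 1.33-fold from 128 ± 8.25 to 96.3 ± 5.06 CPM (adjusted p = 0.034), a call that ended when a single library other than control replicate 1 was dropped (0.0965 to 0.124). That list had a median of -0.06.

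Of 12 other cadherin genes tested, 2 fell and none rose, with a median of -0.18. The neuronal cadherin gene CadN fell 2.18-fold, from 239 ± 36.0 to 109 ± 2.97 CPM (adjusted p = 0.000457), and Cad88C fell 36.7-fold, from 76.6 ± 10.7 to 2.10 ± 0.922 CPM (adjusted p = 5.46e-06). kug, the other fat-like cadherin gene of the fly, averaged 1085 CPM among controls and 1105 CPM under dTet (log2 fold change 0.03, SE 0.15, adjusted p = 0.926), and the epithelial cadherin gene shg had a log2 fold change of 0.20 (SE 0.15, adjusted p = 0.396). The difference between the change of ft and that of these genes was not tested.

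**Figure D5:**
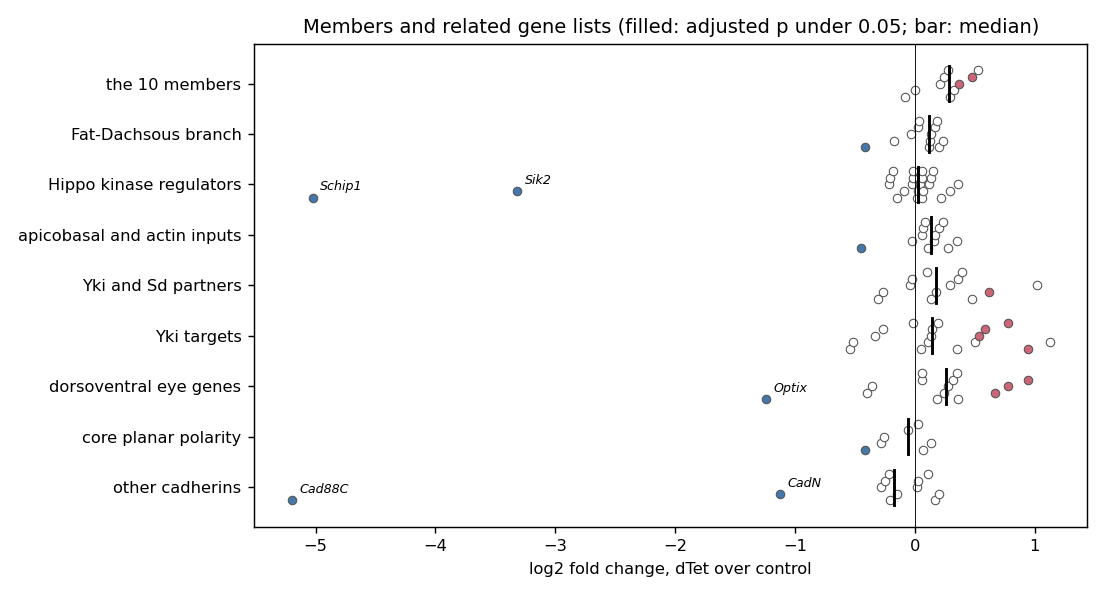
Log2 fold change, dTet over control, of the 10 genes and of every tested gene in the 8 related lists, with filled points for an adjusted p under 0.05 and a bar at each list's median. Most genes lie within 0.5 of 0, and Schip1, Sik2, Cad88C, CadN and Optix are the called genes below -1.

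The genes whose profile over the 6 libraries lay nearest to that of ft, by root mean square difference of centred log2 CPM, were sli (0.032), SERCA (0.04) and S6k (0.045), with log2 fold changes of 0.45, 0.53 and 0.42. sli encodes a secreted guidance cue, SERCA the calcium pump of the endoplasmic reticulum, and S6k a growth kinase downstream of Tor. Nearest to d were Smg5 (0.023), spoon (0.026) and SCAP (0.03), with 0.35, 0.40 and 0.32, of which spoon alone was called (adjusted p = 0.0347). With 6 libraries in 2 groups, such likeness is mostly a likeness of the difference between groups.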

How the data were processed

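The authors deposited whole counts of read pairs, 1 per gene symbol and library, with the exon length of each gene. Per the file headers, featureCounts 2.0.6 counted them over exons (FlyBase 6.45), requiring both mates and using strand setting 2. Per the submitters' processing notes, alignment was to dm6 with HISAT2 2.2.0. Column names carry genotype and replicate number, which tied them to samples. The labels call the replicates biological.

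All 6 libraries entered 1 two-sided fit without covariates in R 4.3.3 and edgeR 4.0.16 (filterByExpr, TMM, glmQLFit, glmQLFTest), with Benjamini-Hochberg adjustment across the 9417 genes kept. Each SE is the log2 fold change over the root of F. The test was tried on simulated data. Alternatives were DESeq2 1.42.0 or its size factors, limma-voom (limma 3.58.1), upper quartile scaling, no filter, 1 CPM in 3 libraries, leaving out ribosomal and small RNAs, a threshold of 0.01, the replicate number as a block, each library left out and, added after seeing the data, removal of a length trend.

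The members, lists and tests were chosen with earlier results of these data known. Named beside the members were up to 4 called genes of smallest adjusted p per list, and the 3 nearest profiles of each called member. vg, vn, Ilp8, chinmo, Diap1, CycE, Myc, kug and shg were chosen after their values were seen. The list entry bantam matched no symbol and was not analysed here. Read pairs are not molecules, and promoter and protein sequences were not used here.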

Additional observations from a re-analysis of the deposited data

How the results depend on the processing

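Members called numbered 2 under all other settings except these: 1 (ft) with no filter on low counts, 0 with the replicate block, 0 at an adjusted p of 0.01, and 0 to 6 with a library left out. All genes called numbered 1669 by DESeq2, 512 at an adjusted p of 0.01, 560 to 3231 with a library left out (3231 without control replicate 1, 714 and 560 without control replicates 2 and 3, 688 and 614 without dTet replicates 2 and 3), and 902 to 1453 under the remaining settings (902 with the replicate block). Of the called genes 33.1% were higher, 29.7% to 37.9% under other settings and 21.3% (without dTet replicate 3) to 43.6% (without control replicate 1) with a library left out, 22.2% without dTet replicate 2.

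With the replicate block the adjusted p was 0.108 for ft and 0.141 for d, with log2 fold changes of 0.48 and 0.37. Among the listed genes it also ended the calls of lft (0.0858), scrib (0.0699) and pk (0.0737). Shared replicate numbers are not shown to mark pairs: deviations from the group means correlated at 0.03, 0.02 and -0.10, and 2 of 6 libraries correlated best with their own number.

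The log2 fold change of sd turned to -0.0054 with upper quartile scaling, -0.013 with no filter, -0.067 with the length trend removed, and -0.073 to 0.14 with a library left out; that of yki lay between -0.16 and 0.011 with a library left out. The cause was not tested. kibra had the lowest counts of the members, 170 to 445 read pairs per library. Its coefficient of variation was 31.5% in controls and 33.6% in dTet, and the part of depth in that spread was not tested.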
